A study of Mus musculus with 36 samples.

Results

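The IL-6 family of cytokines and the STAT3 feedback loop were followed through 10 of the 52636 genes listed in each count table, namely the cytokines Il6, Il11, Lif, Osm and Il22, the receptor chains Osmr, Il6ra and Il22ra1, the transcription factor Stat3 and its feedback inhibitor Socs3. The genes were chosen by name and function with earlier results of these data known, and each symbol matched 1 Ensembl gene of GENCODE M21 on the GRCm38 genome.

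Cytokines of the IL-6 family are secreted proteins that assemble receptors around the shared chain gp130, encoded by Il6st, together with a chain of their own such as the IL-6 receptor (Il6ra) or the oncostatin M receptor (Osmr). IL-22 is a cytokine of the IL-10 family that lymphoid cells make and that epithelial cells sense through Il22ra1 paired with Il10rb. Both kinds of receptor activate JAK kinases and the transcription factor STAT3, which induces acute phase and antimicrobial genes and also Socs3, an inhibitor that binds the receptors and their kinases and limits the signal. In the intestine this pathway is known for its part in epithelial repair and in defense against microbes.

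RNA had been sequenced from whole intestines of E18.5 mouse embryos and from untreated early-passage mouse embryonic fibroblasts (MEFs), 36 libraries of 12 genotype groups with 3 libraries each, all on a C57BL/6N background. One set of intestines held Mlkl-/- controls, Casp8 D387A knock-in embryos with intact Mlkl, D387A Cflar-/- Mlkl-/- embryos, and D387A Cflar-/- Mlkl-/- embryos that also lacked Casp1, Casp1 and Ifnar1, or Casp1 and Fadd. Casp8 encodes caspase-8, whose D387A form is impaired in auto-processing, and Cflar encodes its partner cFLIP. A second set held its own Mlkl-/- controls and embryos with catalytically inactive caspase-8 C362A that were Mlkl-/-, Mlkl-/- Casp1-/- or Cflar-/- Mlkl-/-. The MEFs were Mlkl-/- or D387A Cflar-/- Mlkl-/-. Every group except the D387A knock-in intestines lacked Mlkl, the executioner of necroptosis, so a comparison of D387A with Mlkl-/- embryos differs at both genes. The Cflar deletion of the D387A line came from 1 mosaic founder and differs from that of the C362A line, and Mlkl-/- Casp1-/- controls were not analysed here, so a Casp1-deficient group is compared with Mlkl-/- controls that carry Casp1. In the sample titles of the D387A set, only the controls and the D387A Cflar-/- Mlkl-/- embryos share a leading number. Each other genotype has its own, whose meaning the labels do not give. Whatever goes with it cannot be told apart from genotype in contrasts across these numbers.

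Reads on genes ranged from 17943524 to 27721024 per library in the D387A set, from 21757868 to 31052238 in the C362A set and from 20927014 to 32307629 in the MEFs. Casp1 lay at no more than 0.218 CPM (reads scaled by library size) in the 12 intestines labelled Casp1-deficient and at no less than 47.3 CPM in the 18 others, and Fadd lay between 0.615 and 0.943 CPM where labelled deficient against at least 30.2 CPM in the other intestines. Ifnar1 was lower but not lost, at 32.5 to 38.9 CPM against at least 71.5 CPM. All 8 epithelial and all 6 smooth muscle markers examined were detected in every group of intestines, and the epithelial markers Alpi and Fabp2 were at 0 reads in the MEFs. A level is given in RPKM, which divides the reads of a gene by its exonic length and by a library size that was scaled by TMM within each set. Levels of different sets were therefore scaled separately and are compared only within a set. Genes were called by edgeR's quasi-likelihood test at an adjusted p under 0.05 over all genes of a set, together with a log2 fold change of more than 1 in either direction. The log2 fold changes are given with their standard error. In bulk tissue, fewer cells of a type and less RNA per cell cannot be told apart.

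D387A Cflar-/- Mlkl-/- intestines, which differ from Mlkl-/- controls at both Casp8 and Cflar, held more transcripts of 3 cytokines of the family, Il6, Il11 and Osm, of the receptor Osmr and of Socs3, and fewer of Il22ra1. Of the 9 members tested, 5 were called higher and 1 lower against Mlkl-/- intestines, where 22.2% of the 18360 genes tested were called, 9.4% higher and 12.8% lower. Il6, Il11 and Osm passed the filter on low counts through mutant libraries, since no Mlkl-/- embryo of the D387A set had more than 7 reads of any of them, and of the other 6 members tested, 2 were called higher and 1 lower. Il22 did not pass the filter in any set. Embryos with D387A alone had no called member, where 0.00545% of genes were called (0% higher). In that comparison 1 of 9 members had an unadjusted p under 0.05 in edgeR, and limma-voom and DESeq2 also called none.

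Removal of Casp1 from D387A Cflar-/- Mlkl-/- embryos was accompanied by lower Il6, Il11, Osm, Osmr and Socs3 and higher Il22ra1, so that 6 of 9 members were called against D387A Cflar-/- Mlkl-/- intestines, where 13.4% of genes were called, 8.88% higher and 4.51% lower. This contrast and the one before it share the same D387A Cflar-/- Mlkl-/- libraries, so a chance high value in those libraries would appear in both. Against Mlkl-/- controls, the Casp1-deficient embryos had no called member, where 4.34% of genes were called, 2.16% higher and 2.18% lower. In that comparison 2 of 9 members had an unadjusted p under 0.05 in edgeR, and neither limma-voom nor DESeq2 called any. With Ifnar1 also lost, Il6, Osm and Osmr were again called higher than in Mlkl-/- controls, 3 of 9 members where 12.4% of genes were called, 6.76% higher and 5.64% lower. The Osm call (1.502 ± 0.52, adjusted p = 0.0250) was lost without the second or the third control or the first Ifnar1-deficient embryo (adjusted p from 0.0650 to 0.0950). With Fadd also lost, none of the 9 was called against the controls, where 3.78% of genes were called, 2.81% higher and 0.975% lower. There, 3 members had an unadjusted p under 0.05 in edgeR, and the other tools called none.

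In the C362A set, which carries catalytically inactive caspase-8, Il6, Il11, Osm, Osmr and Il6ra rose in C362A Mlkl-/- intestines, 5 of 9 members where 18% of the 19408 genes tested were called, 10.4% higher and 7.55% lower. Il6, Il11 and Osm had 5, 23 and 32 reads in all over the controls of this set. They passed the filter on low counts with the help of mutant libraries. Without these cytokines, Osmr and Il6ra were the members called. C362A Cflar-/- Mlkl-/- intestines had 5 members higher (Il6, Il11, Osm, Osmr and Socs3) and Il22ra1 lower, where 24.6% of genes were called, 13.4% higher and 11.2% lower. Without the same cytokines, Osmr and Socs3 were higher and Il22ra1 lower. Loss of Casp1 from C362A Mlkl-/- embryos lowered Il11, Osm, Osmr, Il6ra and Socs3, 5 of 9 members where 11.3% of genes were called, 5.6% higher and 5.72% lower. Without the cytokines, these were Osmr, Il6ra and Socs3. C362A Mlkl-/- Casp1-/- intestines had no called member against their Mlkl-/- controls, where 10.5% of genes were called, 6.79% higher and 3.73% lower. Of the 9, 4 had an unadjusted p under 0.05 in edgeR, and neither limma-voom nor DESeq2 called any. Between C362A embryos with and without Cflar, Il6 was called higher and Il22ra1 lower in the Cflar-deficient ones, 2 of 9 where 6.06% of genes were called, 1.45% higher and 4.62% lower.

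**Figure D1:**
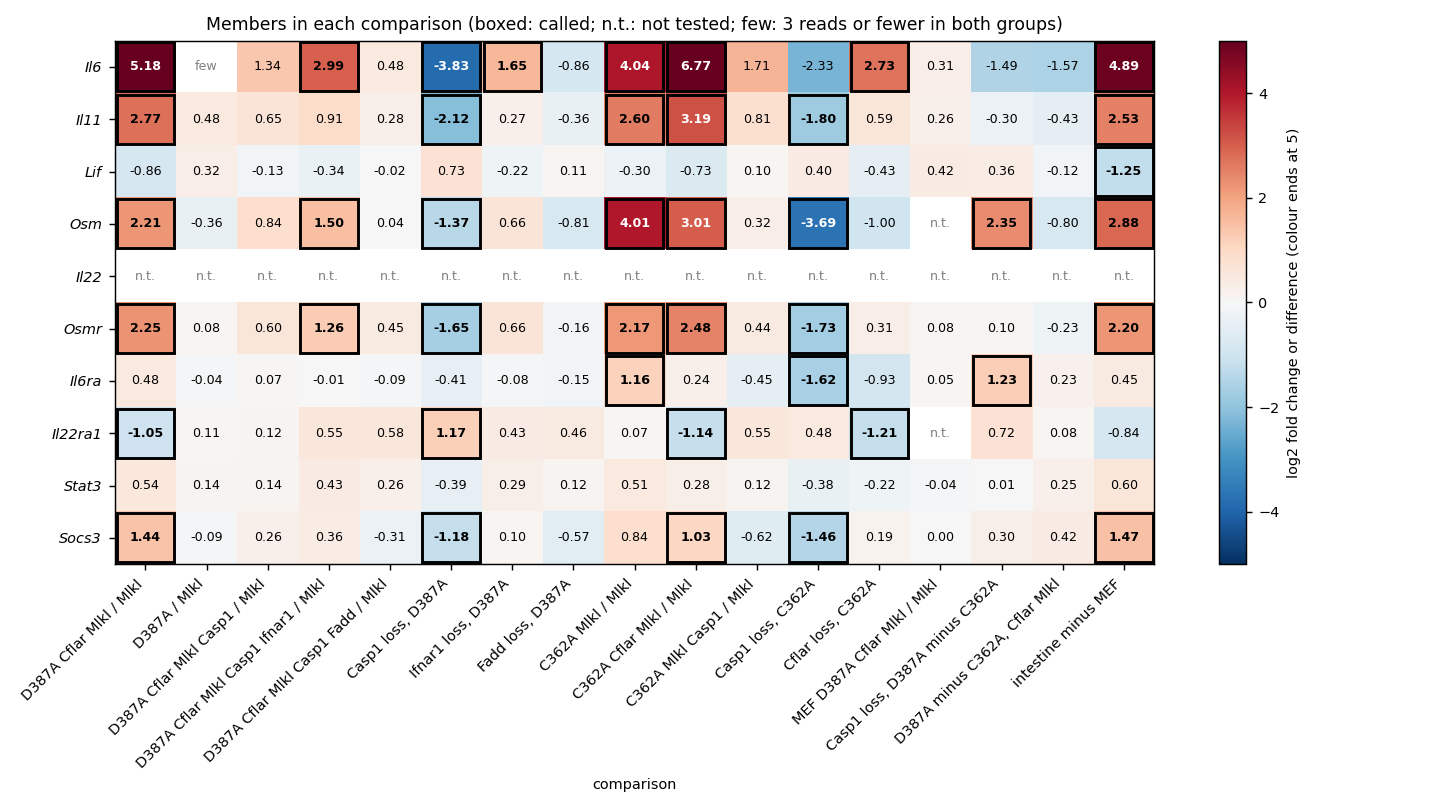
Log2 fold changes of the 10 genes (rows) in 17 comparisons (columns), colored from blue (lower) to red (higher), with called genes boxed. The last 3 columns are differences between log2 fold changes. Genes not tested are marked n.t., and Il6 is marked few for D387A alone, where both groups had 3 reads or fewer. From 5 to 6 genes are boxed in the columns of D387A Cflar Mlkl, C362A Mlkl and C362A Cflar Mlkl against controls, of both Casp1 losses and of the D387A Cflar Mlkl effect in intestine minus MEFs, and the MEF column has none.

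Il6 (chr5:30013114-30019981, plus strand) encodes the cytokine that gives the family its name. It had 0, 2 and 1 reads in the 3 Mlkl-/- intestines of the D387A set, 0 in each of the 3 D387A intestines, and 39, 65 and 39 reads in D387A Cflar-/- Mlkl-/- intestines. The last correspond to 0.693, 1.20 and 0.641 RPKM. Every D387A Cflar-/- Mlkl-/- embryo lay above all other intestines of the set. Its ratio to the controls was 39.8-fold from 143 against 3 reads in all (95% interval 13.3 to 195, counting error only). The fitted log2 fold change was 5.18 ± 0.60 (adjusted p = 2.25e-06). With Casp1 also lost, the 3 embryos had 2, 2 and 5 reads, a change of -3.83 ± 0.49 against D387A Cflar-/- Mlkl-/- embryos (adjusted p = 1.45e-05). With Casp1 and Ifnar1 lost, 9, 12 and 11 reads were counted, all above the range of the Casp1-deficient embryos (log2 difference 1.65 ± 0.59, adjusted p = 0.0458). This call was lost without the third control, without the first D387A Cflar-/- Mlkl-/- embryo, without the first or second Casp1-deficient embryo, without any embryo of the Ifnar1-deficient group or without the second Fadd-deficient embryo (adjusted p from 0.0541 to 0.157). The embryos that lacked Casp1 and Fadd had 0, 2 and 3 reads, within the range of the controls and of the Casp1-deficient group combined.

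Il6 was also high in the C362A set, with a wide spread among the C362A Cflar-/- Mlkl-/- embryos. The controls had 2, 0 and 3 reads, and C362A Mlkl-/- embryos had 31, 37 and 25, a ratio of 17.7 from 93 against 5 reads (95% interval 7.30 to 55.7). The fitted log2 fold change of 4.04 ± 1.46 was called (adjusted p = 0.0381), but not with any of the 6 libraries of these groups left out (adjusted p from 0.0547 to 0.118). The 3 C362A Cflar-/- Mlkl-/- embryos had 474, 74 and 15 reads, or 7.88, 1.13 and 0.226 RPKM, so the third embryo lay below every C362A Mlkl-/- embryo and the first lay far above. The difference between these 2 genotypes was 2.73 ± 0.86 on the log2 scale (adjusted p = 0.0378). Without the first C362A Cflar-/- Mlkl-/- embryo it was 0.55 (adjusted p = 0.594), and the call was also lost without any 1 of the C362A Mlkl-/- embryos (adjusted p from 0.0919 to 0.129). C362A Mlkl-/- Casp1-/- intestines had 2, 11 and 3 reads. Their change against C362A Mlkl-/- intestines, -2.33 ± 1.18, missed the threshold in the fit of the whole set (adjusted p = 0.147) and passed it in a fit of these 2 groups alone (adjusted p = 0.00177).

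The Il6 promoter is shown because Il6 had the largest fitted rise of the 10 genes in the D387A Cflar-/- Mlkl-/- intestines. The sequence is from RefSeq on GRCm38.p6, chr5:30012864-30013113 on the plus strand, and ends 1 base before the annotated start. The capitals mark a match to the kappa-B consensus, the motif of NF-kappaB, 44 to 35 bases before the start.
Il6 promoter: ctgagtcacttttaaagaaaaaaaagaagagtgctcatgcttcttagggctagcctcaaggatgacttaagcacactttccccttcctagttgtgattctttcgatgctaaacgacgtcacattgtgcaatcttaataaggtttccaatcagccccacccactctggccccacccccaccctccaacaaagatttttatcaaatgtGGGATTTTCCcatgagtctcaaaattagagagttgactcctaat
This motif was chosen for searching after the values were known. It was found on either strand in the 250 bases before the start of Il6, Lif and Il22ra1, 3 of the 9 members with a promoter entry, against 7.25% of the 32851 promoters searched. A match is a description of letters and does not show binding.

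**Figure D2:**
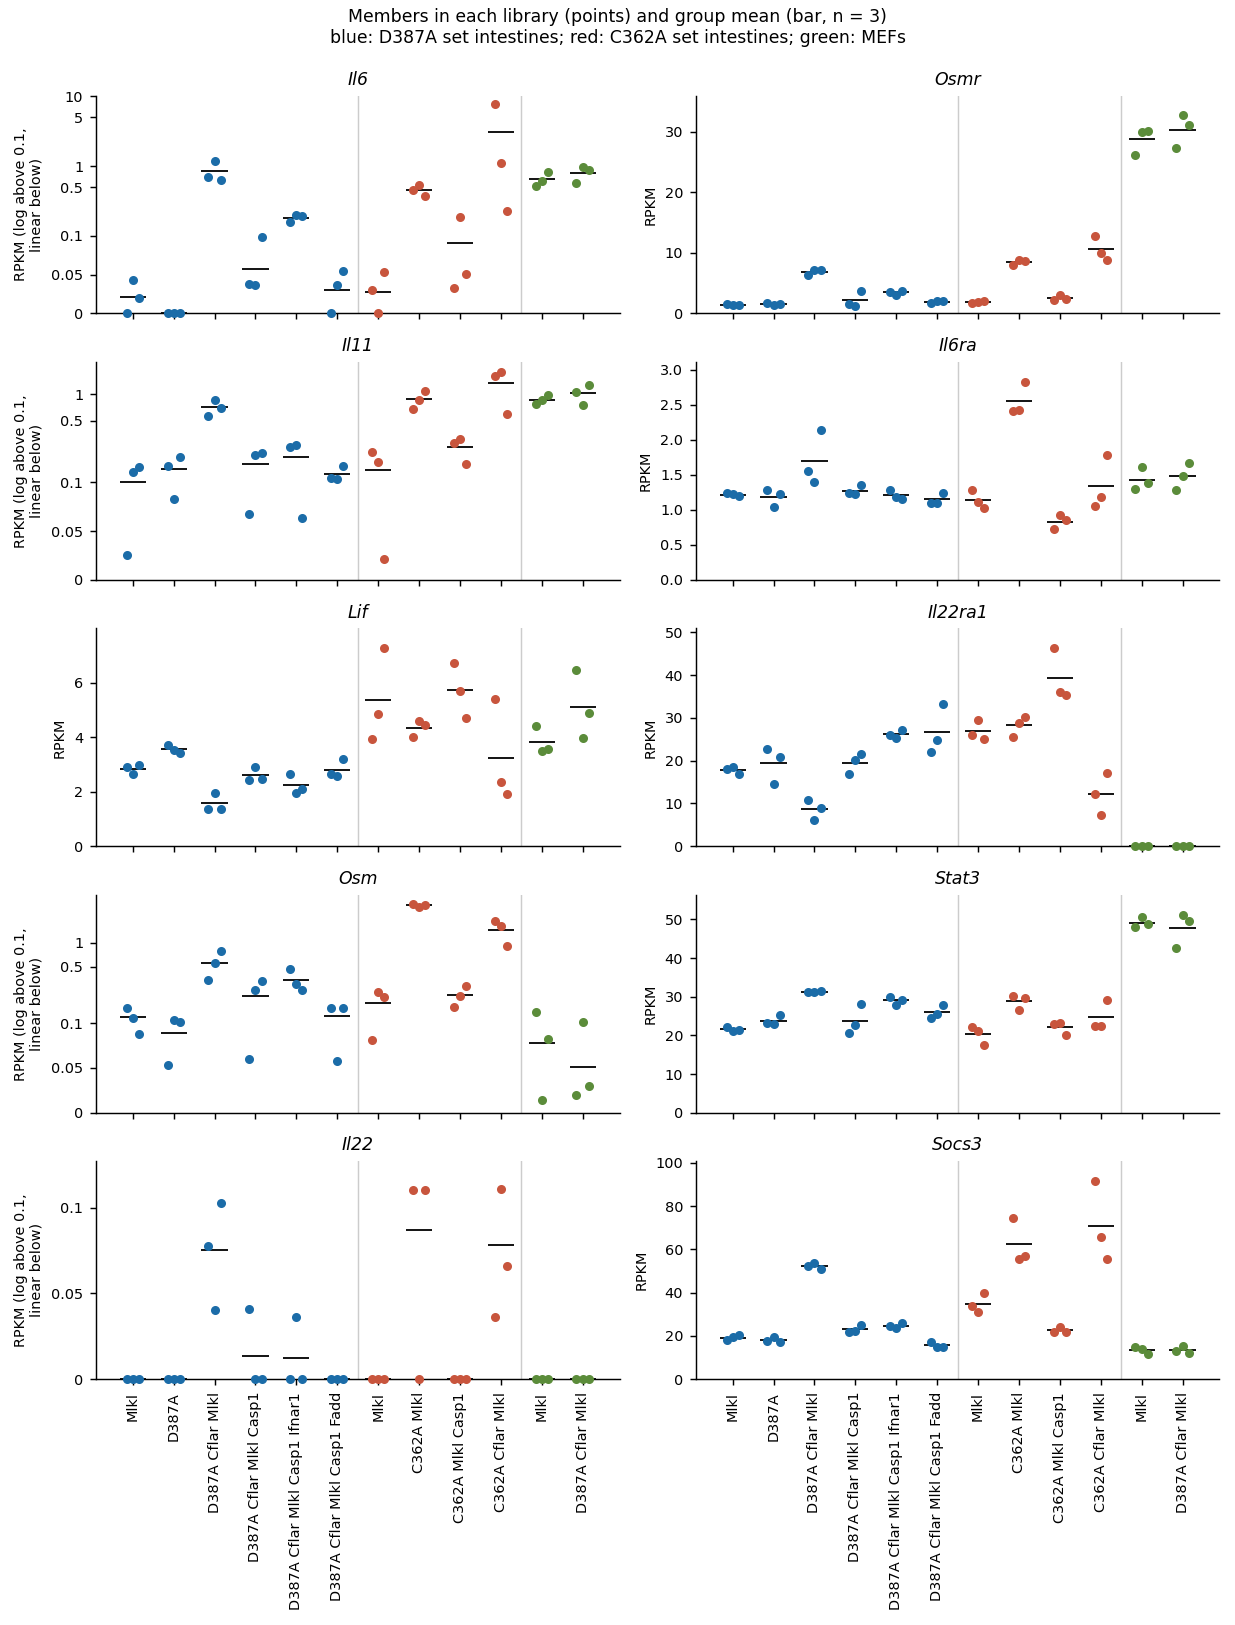
Level in RPKM of each of the 10 genes (panels) in every library (points) of the 12 groups (horizontal axis), with group means as bars (n = 3). The axes of Il6, Il11, Osm and Il22 are logarithmic above 0.1 and linear below. The 3 D387A Cflar Mlkl intestines lie above all other D387A set intestines for Il6, Il11, Osmr and Socs3.

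Il11 (chr7:4772373-4782859, minus strand), a cytokine made mainly by stromal and epithelial cells, stood at 0.0250, 0.131 and 0.149 RPKM in the Mlkl-/- intestines of the D387A set and at 0.558, 0.866 and 0.695 RPKM in D387A Cflar-/- Mlkl-/- intestines. The groups did not overlap (log2 fold change 2.77 ± 0.50, adjusted p = 1.33e-04). Values of 0.0677, 0.201 and 0.213 RPKM were measured where Casp1 was lost, a change of -2.12 ± 0.45 (adjusted p = 9.87e-04). Among C362A embryos Il11 rose from 0.219, 0.171 and 0.0217 RPKM in controls to 0.683, 0.867 and 1.08 RPKM in C362A Mlkl-/- intestines (2.60 ± 0.52, adjusted p = 0.00103). C362A Cflar-/- Mlkl-/- intestines reached 1.59, 1.78 and 0.599 RPKM, which overlapped with C362A Mlkl-/- intestines.

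Osm (chr11:4236420-4241026, plus strand) encodes oncostatin M, a cytokine made mainly by myeloid and T cells. Its level was 0.155, 0.116 and 0.0880 RPKM in Mlkl-/- intestines of the D387A set against 0.342, 0.551 and 0.791 RPKM in D387A Cflar-/- Mlkl-/- intestines (log2 fold change 2.21 ± 0.50, adjusted p = 9.32e-04). Osm also rose in C362A Mlkl-/- intestines, from 0.0809, 0.242 and 0.211 RPKM in controls to 3.01, 2.76 and 2.93 RPKM (4.01 ± 0.35, adjusted p = 4.40e-07). Loss of Casp1 brought the latter to 0.159, 0.220 and 0.288 RPKM, within the range of the controls except for its highest embryo (-3.69 ± 0.34, adjusted p = 2.49e-06). In the D387A set, the Casp1-deficient embryos were spread from 0.0600 to 0.336 RPKM, and the change of -1.37 ± 0.44 was called (adjusted p = 0.0168), but not without the third D387A Cflar-/- Mlkl-/- embryo (adjusted p = 0.0987) or the first Casp1-deficient embryo (adjusted p = 0.0784). C362A Cflar-/- Mlkl-/- intestines lay between, at 1.83, 1.63 and 0.901 RPKM, and every one of them was below every C362A Mlkl-/- intestine. That difference, -0.997 ± 0.279, fell short of the fold threshold (adjusted p = 0.0228), and it was called without the second C362A Mlkl-/- embryo or without the first or the second C362A Cflar-/- Mlkl-/- embryo (-1.03 to -1.197, adjusted p from 0.0212 to 0.0499).

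Neutrophil transcripts were higher than in controls in the groups with the highest Osm, but the 2 did not move together in every group. The summed level of 9 neutrophil markers ranged from 12.8 to 31.7 CPM in Mlkl-/- intestines of the D387A set and from 42.4 to 137 CPM in D387A Cflar-/- Mlkl-/- intestines, where 4 of the 8 markers tested were higher and 1 lower and Elane was at 0 reads. Of all genes tested there, 9.4% were higher and 12.8% lower. With Casp1 and Fadd lost the sum ranged from 40.1 to 70.2 CPM, overlapping with D387A Cflar-/- Mlkl-/- intestines, while Osm, at 0.123 ± 0.0561 RPKM (SD, n = 3), did not pass the test against the controls (0.04 ± 0.61, adjusted p = 0.979). With Casp1 and Ifnar1 lost the sum ranged from 73.2 to 88.5 CPM and Osm was at 0.343 ± 0.109 RPKM. Across the C362A set the sum ranged from 18.1 to 36.7 CPM in controls, from 354 to 436.5 CPM in C362A Mlkl-/- intestines, with 5 of 8 markers higher beside 10.4% of all genes, from 95.2 to 144.9 CPM with Casp1 also lost and from 191.1 to 261.1 CPM in C362A Cflar-/- Mlkl-/- intestines. The C362A Mlkl-/- Casp1-/- intestines thus lay above the controls in the neutrophil sum and overlapped with them in Osm.

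The summed level of 7 macrophage and monocyte markers went from between 389.6 and 418.2 CPM in Mlkl-/- to between 297.2 and 398.1 CPM in D387A Cflar-/- Mlkl-/- intestines, where 2 of the 7 were higher and 1 lower, beside 9.4% and 12.8% of all genes. It lay above all controls with Casp1 and Ifnar1 lost, at 515.5 to 587 CPM, and with Casp1 and Fadd lost, at 479.4 to 500.9 CPM. Among C362A embryos and their controls it ranged from 358.7 to 420.3 CPM in controls, from 510.5 to 575.6 CPM in C362A Mlkl-/- intestines, where 4 were higher beside 10.4% of all genes, from 532.9 to 576.6 CPM with Casp1 also lost and from 363.5 to 426.4 CPM in C362A Cflar-/- Mlkl-/- intestines. The part of these cells in the Osm values was not tested.

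Lif (chr11:4257557-4272514, plus strand), which encodes leukemia inhibitory factor, is the next gene after Osm on chromosome 11, with 16530 bases and no other gene between them. Where Osm was higher in D387A Cflar-/- Mlkl-/- intestines, the level of Lif was lower. Lif lay at 2.90, 2.64 and 2.99 RPKM in Mlkl-/- intestines and at 1.39, 1.96 and 1.37 RPKM in D387A Cflar-/- Mlkl-/- intestines. The groups did not overlap, and the difference of -0.86 ± 0.15 had an adjusted p of 1.03e-04 but was short of the fold threshold. Without the second D387A Cflar-/- Mlkl-/- embryo it was called (-1.05, adjusted p = 1.82e-05). Where Casp1 was lost Lif stood at 2.43, 2.89 and 2.48 RPKM, higher by 0.73 ± 0.15 (adjusted p = 7.54e-04). No comparison of Lif in the C362A set had an adjusted p under 0.05, and controls ranged from 3.92 to 7.26 RPKM against 1.93 to 5.40 RPKM in C362A Cflar-/- Mlkl-/- intestines. Without the first C362A Cflar-/- Mlkl-/- embryo, Lif was called lower in this group than in controls (-1.32, adjusted p = 4.73e-04) and than in C362A Mlkl-/- intestines (-1.02, adjusted p = 0.0128).

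Il22 (chr10:118204942-118210047, plus strand) had only 23 reads in all 36 libraries. Of these, 6 were in D387A Cflar-/- Mlkl-/- intestines (2, 1 and 3 reads), 8 in C362A Mlkl-/- intestines (4, 0 and 4) and 7 in C362A Cflar-/- Mlkl-/- intestines (1, 4 and 2), and 1 each came from a Casp1-deficient and from a Casp1- and Ifnar1-deficient embryo of the D387A set. Both groups of Mlkl-/- intestines, the C362A Mlkl-/- Casp1-/- intestines and all MEFs had 0 reads. A count of 0 allows up to 3 reads over a group. Against that floor, the counted level was 1.67-fold higher in D387A Cflar-/- Mlkl-/-, 2.53-fold in C362A Mlkl-/- and 2.33-fold in C362A Cflar-/- Mlkl-/- intestines. The floor covers counting error of the controls only, and the few reads of the mutant groups are taken as exact. These ratios are therefore not lower limits. The summed level of 11 markers of T, NK and innate lymphoid cells, a list set after values were seen, ranged from 5.04 to 5.49 CPM in Mlkl-/- and from 4.49 to 6.87 CPM in D387A Cflar-/- Mlkl-/- intestines, which overlapped. In the C362A set it ranged from 5.19 to 6.49 CPM in controls, from 8.999 to 10.03 CPM in C362A Mlkl-/-, from 5.90 to 7.15 CPM in C362A Mlkl-/- Casp1-/- and from 8.03 to 11.8 CPM in C362A Cflar-/- Mlkl-/- intestines, with Il17a at 0 reads throughout. The part of these cells in the Il22 and Osm values was not tested. A near-identical copy, Iltifb, had 1 read in all libraries, and as only uniquely aligned reads were counted, reads that fit both copies would be missing from both.

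Among genes that act upstream of Il22 in the gut, Il1b, which encodes the cytokine IL-1 beta that caspase-1 matures, went from 0.455 ± 0.238 RPKM in Mlkl-/- to 24.2 ± 7.15 RPKM in D387A Cflar-/- Mlkl-/- intestines (SD, n = 3, log2 fold change 5.73 ± 0.37, adjusted p = 7.92e-10). It was 2.29 ± 1.07 RPKM with Casp1 also lost, a change of -3.40 ± 0.30 (adjusted p = 1.06e-07). Il1b and Il12b, a subunit of IL-12 and IL-23, were called higher in C362A Mlkl-/- intestines, where Il1b stood at 45.03 ± 2.18 RPKM against 1.43 ± 0.634 RPKM in controls (4.99 ± 0.33, adjusted p = 3.33e-08).

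The receptor gene Osmr (chr15:6813577-6874969, minus strand) encodes the chain that pairs with gp130 to bind oncostatin M. It lay at 1.51, 1.44 and 1.38 RPKM in Mlkl-/- intestines and at 6.35, 7.11 and 7.18 RPKM in D387A Cflar-/- Mlkl-/- intestines (log2 fold change 2.25 ± 0.26, adjusted p = 8.41e-07). With Casp1 also lost, 2 embryos lay at 1.597 and 1.31 RPKM and the third at 3.68 RPKM. The change was -1.65 ± 0.25 (adjusted p = 3.76e-05). The third Casp1-deficient embryo also had the highest neutrophil marker sum of its group, 72.2 CPM against 16.3 and 21.6 CPM, and the highest macrophage sum, 612 CPM against 356.3 and 347.4 CPM. With Casp1 and Ifnar1 lost, Osmr stood at 3.60, 3.09 and 3.72 RPKM, above all controls (1.26 ± 0.26, adjusted p = 6.36e-04). Against the Casp1-deficient embryos this group was 0.66 ± 0.25 higher (adjusted p = 0.051), and 1.26 higher with the third Casp1-deficient embryo left out (adjusted p = 1.07e-06). With Casp1 and Fadd lost, Osmr lay at 1.72, 2.05 and 2.13 RPKM.

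The summed levels of stromal markers did not overlap between D387A Cflar-/- Mlkl-/- intestines and their controls. The summed level of 6 smooth muscle markers ranged from 5129 to 5569 CPM in Mlkl-/-, from 7058 to 8838 CPM in D387A Cflar-/- Mlkl-/- and from 4589 to 4962 CPM in Casp1-deficient intestines, and that of 6 fibroblast markers from 3709 to 4086, from 4882 to 5051 and from 3812 to 4477 CPM. None of the 12 was called between the first 2 of these groups, where 22.2% of all genes were called. Smooth muscle markers of the C362A set ranged from 2593 to 4239 CPM in controls, from 3227 to 4496 CPM in C362A Mlkl-/- and from 6072 to 7148 CPM in C362A Cflar-/- Mlkl-/- intestines, and fibroblast markers from 1806 to 3587, from 1958 to 2564 and from 1915 to 2786 CPM. In C362A Mlkl-/- intestines, where Osmr was called higher, both sums overlapped with the controls. The part of these cells in the Osmr and Il11 values was not tested.

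Osmr rose in the C362A set from 1.69, 1.87 and 2.13 RPKM to 7.96, 8.89 and 8.66 RPKM in C362A Mlkl-/- intestines (2.17 ± 0.16, adjusted p = 7.61e-08). It rose to 12.8, 10.1 and 8.88 RPKM in C362A Cflar-/- Mlkl-/- intestines (2.48 ± 0.16, adjusted p = 2.11e-08). These 2 mutant groups overlapped at their ends, and their difference of 0.31 ± 0.15 missed the threshold (adjusted p = 0.16). Loss of Casp1 brought Osmr to 2.25, 3.09 and 2.36 RPKM, a fall of 1.73 ± 0.16 on the log2 scale (adjusted p = 1.98e-06), still above every control embryo.

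Il6ra (chr3:89864059-89913196, minus strand), the ligand-binding chain for IL-6, was called in the C362A set and in no comparison of the D387A set. C362A Mlkl-/- intestines held 2.41, 2.42 and 2.83 RPKM against 1.29, 1.11 and 1.02 RPKM in controls (log2 fold change 1.16 ± 0.19, adjusted p = 1.70e-04). Loss of Casp1 brought it to 0.725, 0.919 and 0.851 RPKM, below all controls (-1.62 ± 0.19 against C362A Mlkl-/-, adjusted p = 2.36e-05). C362A Cflar-/- Mlkl-/- intestines, at 1.05, 1.18 and 1.78 RPKM, lay below every C362A Mlkl-/- intestine (-0.93 ± 0.19, adjusted p = 0.00346), and without the third of them the difference was called (-1.19, adjusted p = 1.25e-04). D387A Cflar-/- Mlkl-/- intestines held 1.55, 1.39 and 2.14 RPKM against 1.24, 1.22 and 1.19 RPKM in controls, a difference of 0.48 ± 0.14 (adjusted p = 0.00617).

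Il22ra1 (chr4:135728172-135752140, plus strand), the IL-22 receptor chain found on epithelial cells, was the one member called lower in D387A Cflar-/- Mlkl-/- intestines. It lay at 18.1, 18.6 and 16.9 RPKM in Mlkl-/- intestines and at 10.8, 6.17 and 8.86 RPKM in D387A Cflar-/- Mlkl-/- intestines (log2 fold change -1.05 ± 0.19, adjusted p = 1.31e-04). The fold stood close to the threshold and was -0.86 without the second D387A Cflar-/- Mlkl-/- embryo (adjusted p = 8.79e-04). After loss of Casp1 it reached 16.8, 20.1 and 21.5 RPKM, a rise of 1.17 ± 0.19 (adjusted p = 7.88e-05) that was 0.98 without the same D387A Cflar-/- Mlkl-/- embryo. With Ifnar1 or Fadd lost as well, it was higher than in the controls, at 26.0, 25.4 and 27.1 RPKM and at 21.9, 24.9 and 33.3 RPKM, by 0.55 ± 0.18 and 0.58 ± 0.18 on the log2 scale (adjusted p = 0.0210 and 0.0367), which is short of the fold threshold.

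Il22ra1 separated the 2 C362A genotypes with intact Casp1. C362A Mlkl-/- intestines, at 25.6, 28.9 and 30.2 RPKM, overlapped with their controls at 26.0, 29.5 and 25.0 RPKM (0.07 ± 0.22, adjusted p = 0.82). C362A Cflar-/- Mlkl-/- intestines lay at 12.2, 7.29 and 17.2 RPKM, below both (-1.21 ± 0.22 against C362A Mlkl-/-, adjusted p = 0.00202). Against controls the change was -1.14 ± 0.22 (adjusted p = 6.16e-04). Without the second C362A Cflar-/- Mlkl-/- embryo both fell short of the fold threshold (-0.94 and -0.87). The highest level of the set was in C362A Mlkl-/- Casp1-/- intestines, at 46.3, 36.04 and 35.4 RPKM, where the difference from controls of 0.55 ± 0.22 had an adjusted p of 0.0639.

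Epithelial markers did not move as 1 group beside Il22ra1. Of 8 markers, Fabp2 and Alpi, which absorptive enterocytes express, were lower in D387A Cflar-/- Mlkl-/- intestines, Krt8 was higher, 5 were not called and the median log2 fold change was 0.17. Of all genes there, 12.8% were lower and 9.4% higher. The summed level ranged from 10360 to 11040 CPM in Mlkl-/- and from 3588 to 3854 CPM in D387A Cflar-/- Mlkl-/- intestines. Fabp2, the most abundant of them in controls, lay at 6243 ± 87.3 and 106.5 ± 25.5 CPM (SD, n = 3), and Epcam, a marker of all epithelial cells, at 1190 ± 87.8 and 1056 ± 15.6 CPM. In the C362A set Fabp2 lay at 6590 ± 2146 CPM in controls, 1632 ± 247.7 CPM in C362A Mlkl-/- and 302.8 ± 159.8 CPM in C362A Cflar-/- Mlkl-/- intestines, while Epcam lay at 1303 ± 82.0, 1834 ± 72.1 and 1318 ± 195.5 CPM. Between these 2 mutant groups 3 of 8 markers were lower where Cflar was lost, as were 4.62% of all genes. Fabp2 and Epcam were singled out after their values were seen, and the part of epithelial composition in the Il22ra1 values was not tested.

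**Figure D3:**
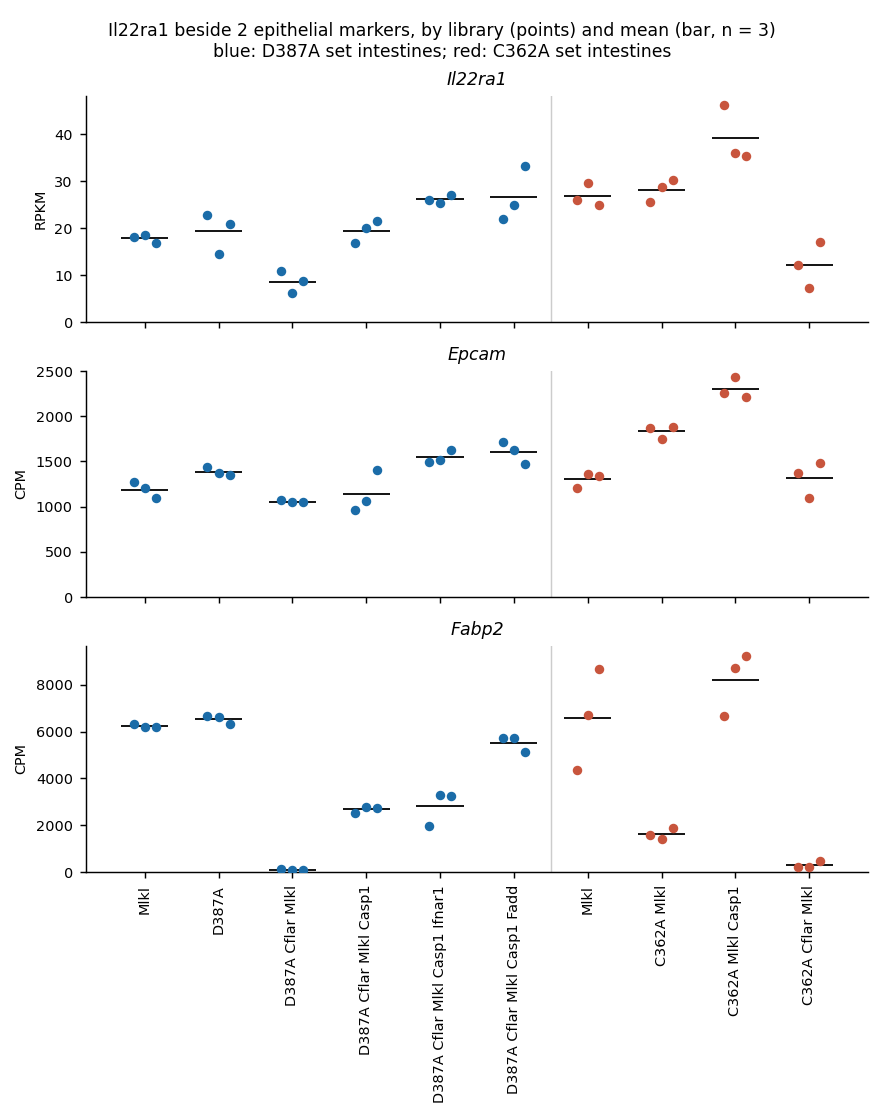
Il22ra1 in RPKM (top) and the epithelial markers Epcam and Fabp2 in CPM (middle and bottom) in each intestine (points) of the 10 groups on the horizontal axis, with means as bars (n = 3). Within each set, the mean of Il22ra1 is lowest in the Cflar-deficient group with intact Casp1, where the mean of Fabp2 is also lowest and that of Epcam is 1056 CPM (D387A set) or 1318 CPM (C362A set).

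Stat3 (chr11:100885098-100939540, minus strand) itself was called in no comparison. It lay at 22.1, 21.2 and 21.5 RPKM in Mlkl-/- and at 31.3, 31.3 and 31.4 RPKM in D387A Cflar-/- Mlkl-/- intestines, a difference of 0.54 ± 0.09 (adjusted p = 8.25e-05) below the fold threshold. In the C362A set it lay between 17.5 and 22.2 RPKM in controls and between 26.5 and 30.3 RPKM in C362A Mlkl-/- intestines (0.51 ± 0.13, adjusted p = 0.00673).

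Socs3 (chr11:117966079-117970047, minus strand) was, with Stat3 and Il22ra1, among the most abundant of the 10 genes per length in the intestines. Its level was 17.99, 19.4 and 20.3 RPKM in Mlkl-/- intestines, 17.7, 19.4 and 17.1 RPKM in D387A intestines and 52.4, 53.8 and 50.8 RPKM in D387A Cflar-/- Mlkl-/- intestines. The last group lay above every other embryo of the set (log2 fold change 1.44 ± 0.08, adjusted p = 1.38e-10). With Casp1 also lost Socs3 was at 21.7, 22.3 and 25.1 RPKM, a fall of 1.18 ± 0.08 on the log2 scale (adjusted p = 4.01e-09), and all 3 embryos stayed above all 3 controls (0.26 ± 0.08, adjusted p = 0.0280). With Ifnar1 also lost it lay at 24.6, 23.6 and 26.2 RPKM, overlapping with the Casp1-deficient group. With Fadd also lost it lay at 17.0, 14.8 and 14.9 RPKM, below every control, by -0.31 ± 0.08 (adjusted p = 0.0132), and below the Casp1-deficient embryos by -0.57 ± 0.08 (adjusted p = 1.63e-04). From low to high the order of group means was thus Casp1 and Fadd loss, D387A alone, Mlkl-/-, Casp1 loss, Casp1 and Ifnar1 loss, and D387A Cflar-/- Mlkl-/-. D387A alone and Mlkl-/- overlapped, as did Casp1 loss with and without Ifnar1.

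In the C362A set Socs3 lay at 33.7, 30.9 and 39.9 RPKM in controls, at 74.4, 55.7 and 56.8 RPKM in C362A Mlkl-/- intestines and at 91.5, 65.8 and 55.3 RPKM in C362A Cflar-/- Mlkl-/- intestines. No control overlapped with either mutant group. The first difference was 0.84 ± 0.17 (adjusted p = 0.00121), below the fold threshold, and the second 1.03 ± 0.17 (adjusted p = 1.85e-04), which dropped to 0.80 without the first C362A Cflar-/- Mlkl-/- embryo and to 0.97 without the second control. With Casp1 lost Socs3 lay at 21.9, 24.1 and 22.0 RPKM, below every control (-0.62 ± 0.17, adjusted p = 0.0131) and below C362A Mlkl-/- intestines by -1.46 ± 0.18 (adjusted p = 2.72e-05).

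The Socs3 promoter is shown because Socs3 was the one member whose 250 bases before the RefSeq start held the letters of a STAT site, TTCNNNGAA, which reads the same on both strands. The sequence is from RefSeq on GRCm38.p6, chr11:117969367-117969616, and is given on the minus strand, which carries the gene. The start used is that of RefSeq, which lies inside the GENCODE interval given above. This window therefore lies wholly inside the GENCODE gene, and the bases before the GENCODE start were not searched. The capitals mark the match, TTCTTAGAA, at 154 to 146 bases before the RefSeq start.
Socs3 promoter: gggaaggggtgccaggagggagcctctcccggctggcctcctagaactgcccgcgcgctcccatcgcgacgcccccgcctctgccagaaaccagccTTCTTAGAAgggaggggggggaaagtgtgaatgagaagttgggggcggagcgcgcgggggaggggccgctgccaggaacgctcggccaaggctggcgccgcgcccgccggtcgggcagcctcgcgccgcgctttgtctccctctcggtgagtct
Of the 9 members with an entry, 1 held this motif, and 7.02% of all 32851 promoters held it. That the motif was not found in the other members says only that these letters are not in this window.

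Transcripts of 20 genes known as targets of STAT3, among them the antimicrobial lectins Reg3b and Reg3g, the acute phase protein Saa3 and the NF-kappaB family regulator Bcl3, were counted beside the members. In D387A Cflar-/- Mlkl-/- intestines 16 of 19 tested were called higher, as were 9.4% of all genes, and none lower, with a median log2 fold change of 2.22 against -0.01 over all genes. Reg3g went from 4.24 ± 0.882 to 6422 ± 693.1 RPKM (SD, n = 3, log2 fold change 10.6 ± 0.65, adjusted p = 4.31e-10), and Timp1, an inhibitor of matrix proteases, from 5.45 ± 0.0895 to 31.1 ± 5.34 RPKM (2.51 ± 0.18, adjusted p = 2.79e-09). None of the 19 was called in D387A alone by edgeR or limma-voom, where 3 had an unadjusted p under 0.05 and DESeq2 called 1. With Casp1 also lost 5 of 19 were higher than in controls (median 0.44, with 2.16% of all genes higher) and with Casp1 and Ifnar1 lost 8 of 19 (median 0.95, with 6.76% of all genes higher). With Casp1 and Fadd lost it was 1 of 19, Saa3 (median 0.23), a share near the 2.81% of all genes that were higher. With Casp1 lost, 12 of 19 were lower than in D387A Cflar-/- Mlkl-/- intestines, where 4.51% of all genes were lower. With Fadd lost on top, 3 were lower, Reg3b, Reg3g and Saa3, where 0.877% were lower.

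With Ifnar1 lost on top of Casp1, 5 of these 19 genes and 3.28% of all genes were called higher. Reg3g lay at 351.5 ± 339.7 RPKM in the Casp1-deficient and 2277 ± 180.1 RPKM in the Casp1- and Ifnar1-deficient intestines (2.70 ± 0.45, adjusted p = 6.91e-04), while Socs3 differed by 0.10 ± 0.08 between the same groups (adjusted p = 0.336). Against C362A set controls, 15 of 20 targets were higher in C362A Mlkl-/- (median 2.00), 16 of 20 in C362A Cflar-/- Mlkl-/- (median 2.18) and 5 of 20 in C362A Mlkl-/- Casp1-/- intestines (median 0.82), where 10.4%, 13.4% and 6.79% of all genes were higher. Loss of Casp1 lowered 11 of 20 and 5.72% of all genes. Reads may be shared between the close copies Reg3b and Reg3g. Some acute phase genes of the list are also made by liver, whose 6 markers summed to 860.7 to 1572 CPM in Mlkl-/- and to 50.6 to 77.8 CPM in D387A Cflar-/- Mlkl-/- intestines. Their part in the counts of targets was not tested.

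**Figure D4:**
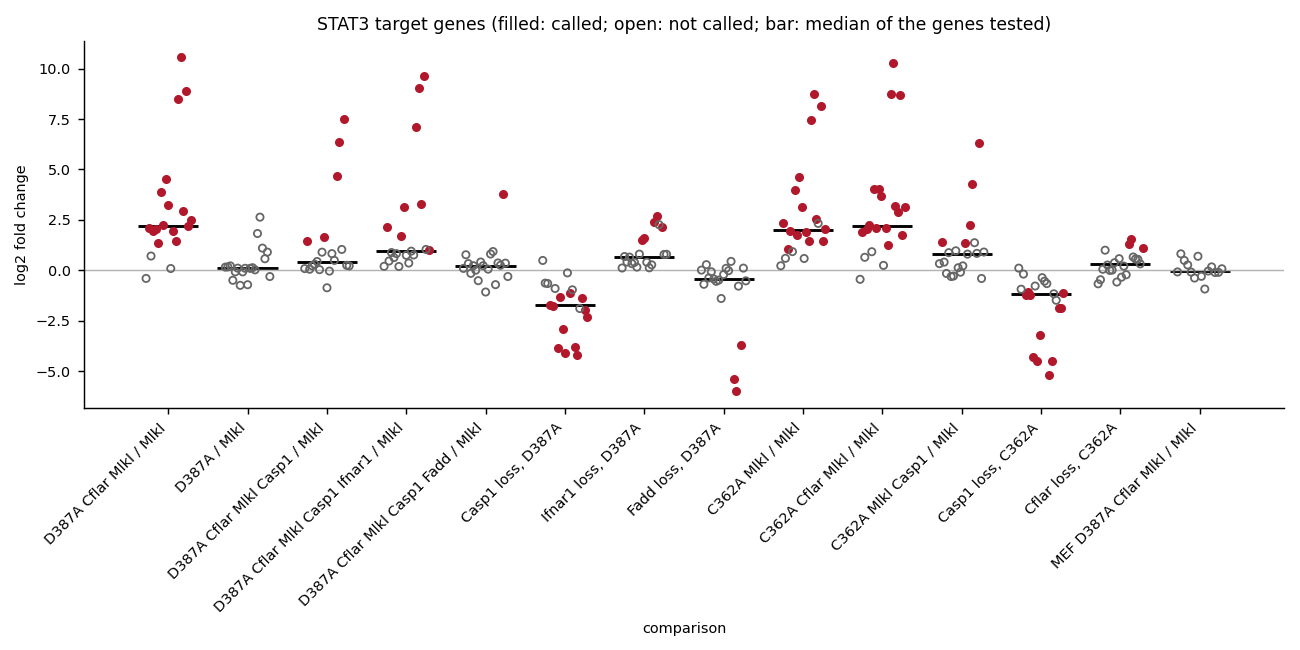
Log2 fold change (vertical axis) of each tested gene of the list of 20 STAT3 targets in 14 comparisons (horizontal axis), with called genes filled, others open and the median as a bar. The median lies at 2.22, 2.00 and 2.18 for D387A Cflar Mlkl, C362A Mlkl and C362A Cflar Mlkl against their controls and at -0.06 in the MEFs.

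Of 10 further receptor chains, 8 were tested in the D387A set, and Il10rb, the partner of Il22ra1, was the one called in D387A Cflar-/- Mlkl-/- intestines, at 27.3 ± 1.83 against 81.8 ± 3.69 RPKM in controls (log2 fold change -1.58 ± 0.10, adjusted p = 4.04e-10). That is 1 of 8 where 22.2% of all genes were called. Casp1-deficient intestines stood at 57.7 ± 8.75 RPKM, a rise of 1.08 ± 0.10 (adjusted p = 1.12e-07). Il6st, the shared gp130 chain, was called in no comparison, with 11.5 ± 0.802 RPKM in Mlkl-/- and 19.2 ± 0.981 RPKM in D387A Cflar-/- Mlkl-/- intestines. In C362A Mlkl-/- intestines 3 of 9 receptor chains were higher, Il10ra, Il20rb and Il27ra, where 10.4% of all genes were higher. In C362A Cflar-/- Mlkl-/- intestines 3 were higher and 2 lower, Il10rb and Il11ra1, where 24.6% of all genes were called. Loss of Casp1 from C362A Mlkl-/- embryos lowered Il10ra and Lifr.

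Of 11 further ligands, 5 were tested in the D387A set and 6 in the C362A set. Ebi3, a subunit of IL-27, was called higher in D387A Cflar-/- Mlkl-/- intestines (1.26 ± 0.20, adjusted p = 3.37e-05), and Ebi3 and its partner Il27 were both higher in C362A Mlkl-/- intestines, by 1.87 ± 0.20 and 3.46 ± 0.40. These were 1 of 5 and 2 of 6 ligands, where 22.2% and 18% of all genes were called. Of 12 kinases, phosphatases and other inhibitors of the pathway, 1 was called in D387A Cflar-/- Mlkl-/- intestines, below the 22.2% of all genes called there. It was Socs1, an inhibitor induced by several cytokines including interferons. Socs1 stood at 4.14 ± 1.11 RPKM in Mlkl-/-, 12.8 ± 2.03 in D387A Cflar-/- Mlkl-/-, 10.6 ± 5.35 with Casp1 lost, 18.9 ± 5.33 with Casp1 and Ifnar1 lost and 28.2 ± 2.64 RPKM with Casp1 and Fadd lost (SD, n = 3), and it was called higher than in controls in all 4 of these groups. In the C362A set it went from 3.77 ± 0.461 RPKM in controls to 41.8 ± 3.41 RPKM in C362A Mlkl-/- and 26.5 ± 3.02 RPKM in C362A Mlkl-/- Casp1-/- intestines. C362A Cflar-/- Mlkl-/- intestines stood at 11.8 ± 1.98 RPKM, called higher than controls (1.64 ± 0.15, adjusted p = 6.65e-07) and lower than C362A Mlkl-/- intestines (-1.83 ± 0.14, adjusted p = 1.94e-05).

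In MEFs no member was called between D387A Cflar-/- Mlkl-/- and Mlkl-/- cells, where 0.0711% of the 15465 genes tested were called, all of them higher. Of the 7 members tested, 1 had an unadjusted p under 0.05 in edgeR, and limma-voom and DESeq2 called none. Il6 had 41, 46 and 43 reads in Mlkl-/- and 31, 50 and 62 reads in D387A Cflar-/- Mlkl-/- MEFs (log2 fold change 0.31 ± 0.29, adjusted p = 0.908), and Socs3 lay at 14.7, 14.01 and 11.7 against 12.8, 15.5 and 12.3 RPKM (0.00 ± 0.12, adjusted p = 0.998). The ranges overlapped for both. Il6, Il11 and Osmr were therefore expressed in the MEFs of both genotypes, with Osmr at 26.1 to 32.7 RPKM. Osm, Il22ra1 and Il22 had too few reads to be tested there. None of the 14 STAT3 targets tested was called by any of the 3 tools, and 3 had an unadjusted p under 0.05 in edgeR.

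Whether an effect differed between settings was tested as a difference of log2 fold changes in joint fits. The effect of D387A Cflar-/- Mlkl-/- against Mlkl-/- was larger in intestine than in MEFs for Il6, Il11, Osm, Osmr and Socs3 and lower for Lif, 6 of 9 members where 15.3% of genes were called, 7.3% higher and 8.01% lower. Osm, with few reads in the MEFs and in the control intestines, passed the filter of this fit through mutant intestines. For Socs3 this difference was 1.47 ± 0.14 (adjusted p = 3.59e-08). No member was called for the difference between the D387A and the C362A backgrounds, both with Cflar and Mlkl lost and each against its own controls, where 0.0764% of genes were called, 0.0102% higher and 0.0662% lower. Of the 9 members, 1 had an unadjusted p under 0.05 in edgeR, and the other tools called none. The 15 genes called became 0 to 645 with single libraries left out, while no member was called with any of the 21 libraries left out. For the effect of Casp1 loss, Il6ra and Osm differed between D387A Cflar-/- Mlkl-/- and C362A Mlkl-/- embryos, 2 of 9 where 5.73% of genes were called, 4.9% higher and 0.825% lower. That contrast also differs by Cflar, which the D387A embryos lacked and the C362A embryos carried.

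The additional loss of Ifnar1 from D387A Cflar-/- Mlkl-/- Casp1-/- embryos came with 1 call among the 9 members, Il6, where 5.31% of genes were called, 3.28% higher and 2.03% lower. The additional loss of Fadd gave none, where 3.44% of genes were called, 2.56% higher and 0.877% lower. There, 2 members had an unadjusted p under 0.05 in edgeR, and the other tools called none.

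The genes whose levels followed a member most closely were found by Pearson's r of log2 CPM over the 18 intestines of the D387A set, as a description. For Socs3 they were Hdgf (r = 0.979), Rap1gds1 (0.978), Zdhhc15 (0.978), Zfp553 (0.977) and Prom1 (0.975). Over the 12 intestines of the C362A set the same genes had r of 0.769, 0.681, 0.881, 0.606 and 0.891. For Il22ra1 they were Tbx3 (0.970), A1cf (0.960), Ifit1bl2 (0.958), Ptpre (0.954) and St3gal5 (0.951), with r of 0.935, 0.727, 0.912, 0.841 and 0.875 in the C362A set. The points of each r share genotypes and depth, and 3 libraries of a genotype lie close together.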

How the data were processed

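RNA sequencing of 30 whole E18.5 intestines and 6 MEF cultures was analysed from the processed files. Single-end reads had been mapped by the authors with GSNAP on GRCm38. From reads with 1 unique position they deposited raw counts, summed over the exons of a gene. They also deposited gene width and RPKM, the latter scaled by a library total of which reads on genes made up 75.6% to 88.6%. The deposited RPKM values were used only to recover that total. The counting program, its annotation and its handling of strand are not given in the sources used here, and the sources disagree on the library kit, so overlapping genes are uncertain. Of 52636 genes, 52403 had a symbol in GENCODE M21.

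Samples were grouped by the genotype and title in their labels, and no library was left out. The labels number the replicates of a group as biological replicates. The members, lists and motifs were chosen with earlier results of these data known. Counts were tested in edgeR 4.0.16 (R 4.3.3) with filterByExpr (minimum count 10, minimum total 15), TMM, the quasi-likelihood test, Benjamini-Hochberg adjustment over all genes of a fit and a prior count of 0.125, and each standard error is the absolute log2 fold change over the root of the F statistic. Although the study used limma for its tests, edgeR is used here because the values are raw counts. The genotypes of a set were fitted together (18, 12 and 6 libraries), and differences between sets in joint fits of 30 and 24 libraries. All 10 members are named in every comparison, and of each further list at most 4 called genes by adjusted p. Results that rest on 1 further gene are not reported here. Intervals and floors (3 counts) cover counting error only, and a floor only that of the group without reads.

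The depth of 17943524 to 32307629 reads on genes per library leaves genes with few reads, such as Il22, below what a test can use. In 36 pairs of libraries within groups, differences exceeded Poisson noise 5.01 to 70.8 times, and no pair was treated as a duplicate. The deviations of same-numbered libraries had r of 0.27, 0.31 and 0.181 in the MEFs and from -0.438 to 0.291 in the intestines. As alternatives, RLE factors, limma-voom (limma 3.58.1), DESeq2 1.42.0, no filter, a prior count of 2, fits of 2 groups, the replicate block and leaving out each library were run, and RPKM was also scaled by the plain sum of gene counts. The fitting script was checked on simulated data.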

Additional observations from a re-analysis of the deposited data

Results flagged for a closer look

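For 8 values, the effect of a genotype differed between settings by a test of the difference itself, fitted with edgeR's quasi-likelihood test over both sets of libraries. All are differences of log2 fold changes.

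The effect of Casp1 loss on Osm differed by 2.35 ± 0.59 between D387A Cflar-/- Mlkl-/- and C362A Mlkl-/- embryos (adjusted p = 0.00864), since Osm fell by 1.37 on the log2 scale in the first and by 3.69 in the second, lower in all 3 Casp1-deficient embryos than in all 3 others in both. For Il6ra the difference was 1.23 ± 0.23 (adjusted p = 8.26e-04), from changes of -0.41 and -1.62. Both calls were kept with each of 21 libraries left out in turn. Within the D387A set the summed neutrophil markers went from between 42.4 and 137 CPM in D387A Cflar-/- Mlkl-/- to between 16.3 and 72.2 CPM with Casp1 also lost. Within the C362A set, which was scaled separately, they went from between 354 and 436.5 CPM in C362A Mlkl-/- to between 95.2 and 144.9 CPM with Casp1 also lost. Their part in these values was not tested.

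The effect of D387A Cflar-/- Mlkl-/- was larger in intestine than in MEFs by 4.89 ± 0.71 for Il6 (adjusted p = 1.97e-05), 2.53 ± 0.59 for Il11 (0.00172), 2.20 ± 0.31 for Osmr (6.88e-06), 1.47 ± 0.14 for Socs3 (3.59e-08) and 2.88 ± 0.98 for Osm (0.0235). For Lif it was -1.25 ± 0.24 (2.68e-04), with Lif lower in D387A Cflar-/- Mlkl-/- intestines and at 6.47, 3.99 and 4.90 against 4.41, 3.51 and 3.57 RPKM in MEFs. The Osm value missed the threshold without the third Mlkl-/- or the third D387A Cflar-/- Mlkl-/- intestine, without the first Mlkl-/- MEF library, or without the first or the third D387A Cflar-/- Mlkl-/- MEF library (2.07 to 2.68, adjusted p from 0.0503 to 0.191), and it rests on 10, 1 and 4 reads in Mlkl-/- and 1, 5 and 2 reads in D387A Cflar-/- Mlkl-/- MEFs. Tissue and culture, and the preparation of each, cannot be told apart in these contrasts.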

How the results depend on the processing

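No called member changed direction under any alternative, while values that were not called changed sign 37 times with single libraries left out, 3 times under limma-voom and 2 times in fits of 2 groups. RLE factors and a prior count of 2 changed no call. The comparison of Casp1- and Ifnar1-deficient with Casp1-deficient intestines, with Il6 as its 1 called member, had 0 called members in a fit of those 2 groups and from 0 to 2 with single libraries left out. The comparison of C362A embryos with and without Cflar, with 2 called members, had 1 under DESeq2 and in a fit of those groups, because Il6 lost its call (adjusted p = 0.0761 and 0.0698). With single libraries left out it had from 1 to 3, as Il6 or Il22ra1 lost and Osm, Lif or Il6ra gained a call. Under limma-voom its count of 2 hid a change of members, as Il6 lost its call (1.42, adjusted p = 0.353) and Osm gained one (-1.06, adjusted p = 0.00857). Il6 in C362A Mlkl-/- against Mlkl-/- intestines missed the threshold under limma-voom (4.19, adjusted p = 0.106). In D387A Cflar-/- Mlkl-/- against Mlkl-/- intestines the calls numbered 6 with each library left out, but without the second D387A Cflar-/- Mlkl-/- embryo Il22ra1 lost its call (-0.86) and Lif gained one (-1.05, adjusted p = 1.82e-05). Osm in Casp1- and Ifnar1-deficient intestines against Mlkl-/- controls missed the threshold without any 1 of 3 libraries (1.22 to 1.47), and for Casp1 loss in the D387A set in a fit of those 2 groups (-1.38, adjusted p = 0.0764). Osm for the difference between intestine and MEFs missed it under limma-voom (2.51, adjusted p = 0.0539). Il6 for Casp1 loss in the C362A set was called without the filter (-2.34, adjusted p = 0.0209). The cause was not tested.

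With the replicate block, Il6 lost its call between C362A embryos with and without Cflar (1.93, adjusted p = 0.132) and Osm gained one (-1.01, adjusted p = 0.0398), which left 2 called members. No call of a member changed in the MEFs, where the block raised the calls over all genes from 11 to 19. The labels number the MEF libraries but name no pairing between the genotypes.

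Counts over all genes that moved by more than 1.5 times were these. For D387A Cflar-/- Mlkl-/- MEFs against Mlkl-/- MEFs, 11 genes became 36 with DESeq2, 45 without the filter and 2 to 14 with single libraries left out. For D387A alone, 1 gene became 3 with DESeq2, 14 without the filter, 7 in a fit of the 2 groups and 1 to 5 with single libraries left out. For the difference between the D387A and C362A backgrounds, 15 genes became 70 with DESeq2, 7 with limma-voom, 123 without the filter and 0 to 645 with single libraries left out. Fits of 2 groups gave 322 in place of 631 genes for Fadd loss, 411 in place of 975 for Ifnar1 loss (582 to 1740 with single libraries left out) and 456 in place of 796 for Casp1-deficient embryos against Mlkl-/- controls. Scaling RPKM by the sum of gene counts moved 14 of 120 group means by more than 1 SD.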
